A study of Rattus norvegicus with 30 samples.

Results

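Cdh13 encodes T-cadherin, also called H-cadherin, and the data described here are the DNA methylation (DNAm) of a stretch of this gene in the prefrontal cortex (PFC) of young rats. The stretch is the span between 2 intronic sites of Cdh13 on chromosome 19, chr19:51285919-51864169 in the Rn6 build, and is 578251 bp long. It was chosen by measured values: the study lists the regions at both of its ends among those that differ between prenatal groups. The values at the ends are therefore given as a description, with no test. Sites of enriched DNA found in the 30 libraries, called peaks, were merged wherever they overlapped by at least 1 bp. Of the 432103 autosomal merged regions with a called peak in 2 or more libraries, 166 overlapped the span and are its members.

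T-cadherin is an unusual cadherin, because it lacks the transmembrane and cytoplasmic parts of the classical cadherins and is held to the outer face of the cell membrane by a glycosylphosphatidylinositol anchor. It binds itself on neighbouring cells as well as the hormone adiponectin, and in the nervous system it is known for roles in the growth of axons and in the formation of synapses. DNAm is common inside gene bodies in the mammalian brain and need not follow that of the promoter. In the RefSeq annotation of the assembly GRCr8, used only for names, Cdh13 has the gene ID 192248 and lies between the protein-coding genes Mphosph6 and Hsbp1.

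The animals were Sprague-Dawley rats, and the treatment was the diet of their dams during gestation. In the prenatal alcohol exposure (PAE) group dams drank an ethanol diet freely. The rations of the pair-fed (PF) dams were matched to those of PAE dams and held maltose-dextrin instead of alcohol, so PF joins a liquid diet with restricted feeding. Control (CON) dams had unlimited pellets made to the recipe of the alcohol-free diet. PFC was taken from the offspring on postnatal day 22, after the diets had ended. Each group had 10 libraries, 5 from animals labelled female and 5 from animals labelled male, and each of the 15 dams gave 1 animal of each labelled sex.

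DNAm was measured by methylated DNA immunoprecipitation followed by sequencing (meDIP-seq), in which an antibody against 5-methylcytosine pulls down methylated fragments and piles of sequenced fragments mark methylated DNA. The fragments left after filtering, as stated in the peak files, numbered 11548314 to 15472634 in CON, 13254266 to 15537001 in PAE and 12571392 to 16555049 in PF libraries. The value of a region in a library is its highest pileup, the number of fragments stacked at the summit of its peak, per 1000000 fragments kept by the filters, named normalized height here. A library without a called peak, or with a lower one, was set to a floor of 0.438. At this depth the lowest pileup of a called peak in the members was 5 fragments, so a height at the floor means that a library had no called peak or one under the floor, not that DNAm was absent. PFC is a mixture of cell types, so a change in the share of cells methylated at a site and a change in the makeup of the tissue cannot be told apart. The labelled tissue was not checked against marker genes, since expression was not analysed here.

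The labelled sex did not follow the peaks on the sex chromosomes. In 23 libraries chromosome X held 0.774 to 1.15% of all peaks and chromosome Y had 38 to 87 peaks, while in the other 7 libraries chromosome X held 2.65 to 3.14% and chromosome Y had 4 to 11 peaks. Of these 7 libraries, 2 were labelled female and 5 were labelled male. Counting a library with many peaks on chromosome Y as going with a male label, 12 libraries went with their labels (3 CON, 6 PAE and 3 PF) and 18 went against them. Sex is therefore given as labelled, and the counts of the group comparisons are also given for the 12 libraries alone. No value used here checks the labels of group, dam and lane, so they are open to the same doubt, and each group comparison and each statement on litters takes them as given. Values split by labelled sex are not given for the 12 libraries alone, since 0 CON libraries labelled female are among them. The sequencing lanes did not hold the groups evenly either, with no PAE library on 1 of the 5 lanes and no PF library on another, so lane was a term in every comparison unless stated otherwise.

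DNAm peaks were spread along the whole of the Cdh13 span. The 166 members covered 93934 bp, or 16.2% of the span, and were 246 to 1886 bp long (median 478 bp). Neighbouring members were separated by a median of 2130 bp, and the longest stretch without a member was 12312 bp, chr19:51597268-51609579. The long members tended to be the ones called in many libraries, with a Spearman correlation of 0.643 between length and the number of libraries over the 166 members. These points share the same 30 libraries, and a merged region grows with each peak that joins it.

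Most of the sites were called in a minority of the animals. The median member was called in 6 of 30 libraries, as was the median region over all autosomes. A peak in exactly 2 libraries was called at 28 members, or 16.9%, beside 18.5% of all regions called in 2 or more libraries. At 2 members a peak was called in all 30, which is 1.20% of the members, beside 2.76% of all these regions. Another 50 merged regions of the span were called in only 1 library and are not members. Heights rose along with presence. The typical called height, taken as the median over members of each member's median, was 0.758 for members called in 2 libraries, 0.851 for those called in 6 to 14 libraries and 1.52 for the 2 called in all 30.

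Examples from either side of the limit of 2 libraries had heights of 0.369 to 0.944. Taken by position, the members chr19:51315337-51315670 and chr19:51317919-51318260 were each called in 2 libraries, at heights of 0.783 and 0.944 in the former and 0.687 and 0.866 in the latter. The regions chr19:51304089-51304341 and chr19:51308487-51308783, called in 1 PAE library each and so left out, had heights of 0.369 and 0.471 there. The members stood above the floor with 10 or 11 fragments at the summit. The regions left out had 5 and 7, and the latter of them also stood above the floor.

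The 5 members with the highest mean height were each called in 26 or more of the 30 libraries. The highest was chr19:51618834-51619558, called in all 30 libraries at a mean height of 1.69 ± 0.311 (SD, n = 30). Its lowest, median and highest heights were 1.38, 1.76 and 2.25 in CON, 1.24, 1.62 and 1.79 in PAE, and 1.03, 1.62 and 2.34 in PF libraries. The groups overlapped over most of their range, and the widest spread was in PF. The other member called in all 30 libraries, chr19:51398126-51399409, had a mean height of 1.41 ± 0.296 (SD, n = 30), with 1.16, 1.45 and 2.06 as the lowest, median and highest heights in CON, 0.965, 1.09 and 1.65 in PAE, and 1.13, 1.37 and 1.91 in PF. Its PAE median lay under the lowest CON height and the lowest PF height, yet the highest PAE libraries reached well into the range of both. In limma PAE minus CON was −0.28 on the log2 scale (SE 0.159, unadjusted p = 0.0845, adjusted p = 0.695), which did not pass the threshold. It was −0.14 under quantile normalization, −0.17 under median ratio scaling, −0.13 with fold enrichment and −0.64 when only peaks covering at least 50% of the region were used.

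Next in height were chr19:51365508-51366210, at 1.44 ± 0.380, and chr19:51537913-51538541, at 1.42 ± 0.441 (SD, n = 30), each called in 29 libraries. The former had a mean of 1.47 ± 0.485 in CON, 1.40 ± 0.372 in PAE and 1.46 ± 0.296 in PF libraries (SD, n = 10), and the means lay within the spread of any group. The latter had its lowest, median and highest heights at 0.902, 1.69 and 1.97 in CON, 0.883, 1.34 and 1.93 in PAE, and 0.438, 1.55 and 2.26 in PF. Its peak was sharply placed: over its libraries the position of the summit had an SD of 18.7 bp, the lowest of the 26 members called in at least 20 libraries, which had a median SD of 73.5 bp. Across those 26 members the SD reached 332 bp, so the summit moved little between libraries at some sites and widely at others. The fifth of the highest members is the left end of the span, described next.

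At the left end, chr19:51285919-51286626, 9 CON, 7 PAE and 10 PF libraries had a called peak. Its lowest, median and highest heights were 0.438, 1.56 and 1.97 in CON, 0.438, 1.04 and 1.97 in PAE, and 1.24, 1.47 and 2.23 in PF. The means were 1.48 ± 0.438, 1.08 ± 0.554 and 1.53 ± 0.310 (SD, n = 10), and the PAE libraries spanned the whole range from the floor to the highest CON library. Within the labels, animals labelled female had means of 1.76 ± 0.191 (CON), 1.11 ± 0.733 (PAE) and 1.61 ± 0.393 (PF), and the means were 1.19 ± 0.441, 1.04 ± 0.388 and 1.45 ± 0.217 in those labelled male (SD, n = 5). PAE had the lowest mean under both labels, and since this site helped to choose the span nothing is read from that order.

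The right end, chr19:51863855-51864169, was nearly empty. A peak was called there in 3 of the 30 libraries, PAE replicate 2 at 0.817 and PF replicates 1 and 3 at 0.621 and 0.804, and every CON library was at the floor. All 3 of these libraries were labelled female and had 67, 50 and 67 peaks on chromosome Y, while the 15 libraries labelled male had none called at this site. The pileups behind the 3 peaks were 9 to 12 fragments. With so few peaks, the heights at this end carry little information on any group.

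Peak calling changed within a few kilobases of the ends. Just outside the left end, chr19:51281549-51281990 was called in 9 libraries at heights of 0.730 to 1.30, with means of 0.524 ± 0.272 for CON, 0.635 ± 0.221 for PAE and 0.641 ± 0.329 for PF (SD, n = 10). Just outside the right end, chr19:51868630-51868975 was called in 6 libraries at 0.459 to 1.28, with means of 0.523 ± 0.268, 0.566 ± 0.247 and 0.484 ± 0.139 in the same order. Just inside the right end, chr19:51862946-51863499 was called in 18 libraries, 6 CON, 5 PAE and 7 PF, although the end itself was called in 3. Its means of 0.703 ± 0.267, 0.671 ± 0.270 and 0.719 ± 0.278 (SD, n = 10) differed by far less than the spread within a group.

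Just inside the left end, chr19:51291006-51291549 was either absent or high. It was called in 10 libraries, 2 CON, 3 PAE and 5 PF, at heights of 1.91 to 2.85, and the other 20 libraries were at the floor. The median called height of 2.49 ranked above that of every other member called in at most 15 libraries, a ranking made after the values were seen. No dam had both of her offspring called: in 10 litters 1 animal had the peak and in 5 litters neither had it. Of the 10 animals, 8 were labelled female and 2 labelled male, yet all 10 libraries had many peaks on chromosome Y (38 to 73), and 0 of the 7 libraries with few had this peak called. The summit lay within 33 bp in all 10 libraries, and the pileups of 24 to 42 fragments were among the highest of the span, so these were not weak peaks near the calling limit.

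Other members with few but high peaks were singled out by the same ranking. At chr19:51403503-51404100 4 CON libraries, 1 PAE library and 1 PF library had a peak at heights of 1.39 to 1.94. These 6 included the 5 libraries with the most autosomal peaks and lay on 2 of the 5 lanes, so group, lane and the number of peaks cannot be told apart there. At chr19:51779980-51780614 there were 5 CON, 2 PAE and 2 PF libraries at 1.03 to 2.09, and at chr19:51781192-51781506 only 2 CON libraries, from a single litter, at 1.63 and 1.69, both among the 5 libraries with the most peaks. In each of these the called libraries stood clear of the floor, which a ranking by median called height favours. Other members did so too, such as chr19:51475154-51475540, called in 15 libraries at 1.02 to 2.01. At many members the called heights began just over the floor.

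The number of members called in a library followed how many peaks that library had. CON libraries had 56.9 ± 13.3 members called, PAE 49.9 ± 12.8 and PF 53.6 ± 9.01 (SD, n = 10), with lowest, median and highest counts of 36, 54 and 80 in CON, 37, 47.5 and 82 in PAE, and 40, 53 and 71 in PF. The groups overlapped almost fully. The same libraries had 151576 ± 26759 autosomal peaks in CON, 135828 ± 26494 in PAE and 143998 ± 19297 in PF, and over the 30 libraries both counts rose together (Spearman 0.799, Pearson 0.884), as counts from the same libraries with the same depth. As a share of the autosomal peaks, the members made up 0.0373% in CON, 0.0366% in PAE and 0.0373% in PF, so the order of the counts was that of all peaks.

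Some members had no peak in a whole group, and others had a peak in all of its libraries. Of the 136 inner members with a called peak in at least 3 libraries, the ones tested, 9 had no called peak in CON (6.43% of all tested regions), 8 had none in PAE (9.24% of all) and 9 had none in PF (8.14% of all). In the opposite case, 9 were called in every CON library (6.48% of all), 6 in every PAE library (5.67% of all) and 9 in every PF library (6.61% of all). The shares of the members were 6.62%, 5.88% and 6.62% for absence and 6.62%, 4.41% and 6.62% for presence in CON, PAE and PF. The other 28 members, called in exactly 2 libraries, were not tested.

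The question asked of PAE versus CON animals is whether alcohol exposure before birth goes along with altered DNAm in the PFC. PAE dams also had a liquid diet and a reduced food intake, unlike CON dams, so alcohol cannot be told apart from these in this comparison. Across Cdh13, normalized heights tended to be lower in PAE, by a small amount and about as often as in the rest of the genome. PAE libraries also had fewer autosomal peaks, 135828 on average beside 151576 in CON, and the part of that in the heights was not tested. Of the 136 inner members tested, 90 were lower in PAE than in CON and 46 were higher, with a median log2 difference of −0.08, beside 222455 lower and 129233 higher of 352026 regions and a median of −0.05 over all. These are signs of differences fitted with lane and labelled sex. At members called in few libraries they can oppose the plain means. At chr19:51596101-51596477 the fitted difference was 0.07, with means of 0.459 in CON and 0.438 in PAE. With no lane term 92 of 136 members were lower, beside 63.7% of all regions. At a false discovery rate (FDR) of 0.05, the share of false calls accepted after the Benjamini-Hochberg adjustment over all tested regions, limma called 0 members and 0.000284% of all regions, which is 1 region outside the span. At an unadjusted p under 0.05 it called 12 members (8.82%), beside 7.37% of all regions. Of these, 11 (8.09%) were lower in PAE, beside 6.03% of all, and 1 was higher, beside 1.34%. The count was 6 of 129 members without CON replicate 2, which had the most autosomal peaks, beside 6.46% of all regions. It was 7 of 136 with fold enrichment in place of height, beside 6.70%. In the 12 libraries that went with their labels it was 5 of 79, beside 6.93%. Quantile normalization gave 4 lower and 2 higher, beside 5.73% of all regions called. With it 73 of 136 members were on the lower side, and 52.3% of all regions in place of 63.2%. With median ratio scaling 79 of 136 members were lower, beside 55.7% of all regions. The shift was wider in the 12 libraries, where 62 of 79 members (78.5%) were lower at a median of −0.22, beside 66.4% of all regions at a median of −0.15. Apart from the share on the lower side in the 12 libraries, these shares are near the background. None of the 136 inner members tested passed the adjusted test.

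The member with the smallest p was chr19:51681912-51682783, called in 8 CON, 4 PAE and 10 PF libraries. Its lowest, median and highest heights were 0.438, 0.970 and 1.89 in CON, 0.438, 0.438 and 1.57 in PAE, and 0.759, 0.987 and 1.51 in PF. The PAE libraries were mostly at the floor, and PAE replicates 2, 3, 5 and 9 had a peak, at heights inside the CON range. PAE minus CON was −0.73 on the log2 scale (SE 0.231, unadjusted p = 0.00345, adjusted p = 0.661). It was negative in each of the 4 lanes that held both groups, from −1.30 to −0.32, and was −1.41 in the 12 libraries that went with their labels.

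The longest member, chr19:51421480-51423365, was called in 6 CON, 1 PAE and 5 PF libraries. Heights were low in CON and PAE, with lowest, median and highest values of 0.438, 0.716 and 0.963 in CON, 0.438, 0.438 and 0.606 in PAE, and 0.438, 0.474 and 1.43 in PF, where replicate 4 stood apart at the top. Among PAE libraries only replicate 5 rose above the floor, and it lay under the CON median, although 4 CON libraries were at the floor as well. On the log2 scale PAE minus CON was −0.55 (SE 0.209, unadjusted p = 0.0126, adjusted p = 0.661), with lane values from −1.11 to 0.16. The remaining member of the 3 with the smallest p, chr19:51724842-51725198, was called in only 2 CON libraries and 1 PF library, at 1.01, 1.36 and 0.795, and these are 3 of the 5 libraries with the most autosomal peaks. Its difference of −0.40 (SE 0.138, unadjusted p = 0.00647, adjusted p = 0.661) came from 1 lane, and in the other 3 lanes with both groups every library was at the floor.

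Against this direction, chr19:51522929-51523311, named after its values were seen, was the member higher in PAE at the unadjusted threshold. It was called in 2 CON, 7 PAE and 3 PF libraries, with lowest, median and highest heights of 0.438, 0.438 and 1.36 in CON, 0.438, 1.03 and 1.44 in PAE, and 0.438, 0.438 and 1.97 in PF. The highest single library was in PF, and the ranges of the groups overlapped from end to end. The PAE minus CON difference was 0.72 on the log2 scale (SE 0.335, unadjusted p = 0.0406, adjusted p = 0.672), 0.46 with fold enrichment in place of height and 0.28 in the 12 libraries that went with their labels.

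PAE versus PF compares alcohol exposure with a group that shares the liquid diet and the reduced food intake. PAE dams fed freely, while PF dams had a restricted ration, which the paper describes as a mild stress and a treatment of its own. Alcohol and the way of feeding therefore cannot be told apart in it. In this comparison 79 of the 136 inner members were lower in PAE and 57 higher, with a median log2 difference of −0.04, beside 198393 lower and 153295 higher of all regions and a median of −0.02. limma called 0 members and 0% of all regions at an FDR of 0.05. Without adjustment, at p under 0.05, it called 8 members (5.88%), beside 4.46% of all regions, of which 6 were lower in PAE, beside 2.95%, and 2 were higher, beside 1.51%. The count was 4 or 5 when any of PAE replicates 2, 3, 4, 5, 6 and 9 or PF replicates 1, 2, 3, 4, 5 and 10 was left out, beside 3.80 to 4.90% of all regions. In the 12 libraries that went with their labels it was 3 of 79, beside 3.12% of all regions. With no lane term it was 3 of 136, beside 3.69%. Quantile normalization gave 4 lower and 3 higher, beside 4.54% of all regions called, with 74 of 136 members on the lower side. The direction was not stable: without PF replicate 4 only 63 of 129 members (48.8%) were lower in PAE, at a median of 0.01, and in the 12 libraries 40 of 79 were, beside 49.1% of all regions. Counts this small shift with any of these libraries, and no member passed the adjusted test.

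The smallest p again belonged to chr19:51681912-51682783, where all 10 PF libraries had a peak and 6 of the 10 PAE libraries had none. The log2 difference between PAE and PF was −0.65 (SE 0.232, unadjusted p = 0.00901, adjusted p = 0.988), from −0.84 to −0.63 in the 3 lanes with both groups. It was −0.40 when only peaks covering at least 50% of the region were used and −1.06 in the 12 libraries that went with their labels. PF and CON were alike there in mean, at 0.994 ± 0.225 and 1.03 ± 0.464, while PAE was at 0.663 ± 0.373 (SD, n = 10). Both differences rest on the same PAE libraries and do not stand as separate evidence.

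A second site of this comparison, chr19:51705530-51706188, was called in 3 CON, 6 PAE and 8 PF libraries. Its lowest, median and highest heights were 0.438, 0.438 and 1.20 in CON, 0.438, 0.700 and 1.57 in PAE, and 0.438, 1.11 and 1.46 in PF. PAE lay between the other groups in median and held the highest library, and each group had libraries at the floor. The log2 difference between PAE and PF was −0.66 (SE 0.281, unadjusted p = 0.0245, adjusted p = 0.988), with lane values from −1.15 to −0.23, and it was −0.44 with no lane term and −0.37 with the larger overlap. The site just inside the left end, chr19:51291006-51291549, followed with a difference of −0.86 (SE 0.383, unadjusted p = 0.0322, adjusted p = 0.988). That value contrasts 3 PAE with 5 PF libraries that had the peak. Of these, PAE replicates 4 and 8 and PF replicate 10 lay on lanes without the other group. It was −0.51 with no lane term and −0.54 with fold enrichment in place of height, and its sign turned, to 0.09, with the larger overlap.

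PF versus CON compares pair-feeding on the liquid diet with free feeding on pellets, so restricted feeding and the form of the diet cannot be told apart in it. Here 83 of the 136 inner members were lower in PF than in CON and 53 higher, with a median log2 difference of −0.05, beside 202683 lower and 149005 higher of all regions and a median of −0.03. The adjusted test in limma, at an FDR of 0.05, called 0 members and 0% of all regions. Without adjustment, at p under 0.05, there were 10 members (7.35%), beside 6.46% of all regions, with 6 lower in PF, beside 4.39%, and 4 higher, beside 2.06%. In the 12 libraries that went with their labels the count was 5 of 79, beside 4.60% of all regions. With the larger overlap it was 4 of 118, beside 6.38%. It was 6 of 136 with fold enrichment, beside 5.97%, and 6 of 136 with a pseudocount of 0.1, beside 5.93%. The lead of the lower side shrank under other scalings, to 73 of 136 members, a median of −0.01 and 50.6% of all regions with quantile normalization, and to 75 members at a median of −0.01 with median ratio scaling. It grew in the 12 libraries, to 55 of 79 (69.6%) at a median of −0.24, beside 63.1% of all regions at −0.14. In the 23 libraries with many peaks on chromosome Y it grew to 82 of 122 (67.2%) at −0.13, beside 59.2% of all regions at −0.05. As in the comparisons with PAE, the members were called about as often as all regions were.

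Both of the sites with the smallest p were higher in PF. At chr19:51705530-51706188, where the called peaks went from 3 in CON to 8 in PF, the log2 difference was 0.92 (SE 0.291, unadjusted p = 0.00355, adjusted p = 0.773), and it was positive in each of the 4 lanes with both groups, from 0.56 to 1.54. It was 0.42 when only peaks covering at least 50% of the region were used. At chr19:51291006-51291549, with a peak in 2 CON and 5 PF libraries, it was 1.25 (SE 0.397, unadjusted p = 0.00365, adjusted p = 0.773), from 0.68 to 2.12 across the lanes, 0.74 with no lane term and 0.71 with the larger overlap. At both sites every CON library with a peak lay on the lane that held no PF library. In the 4 lanes with both groups all CON libraries were therefore at the floor. The site chr19:51291006-51291549 was at the floor in 8 of 10 CON and 5 of 10 PF libraries, so its difference is one of presence. In the 23 libraries with many peaks on chromosome Y alone it was 1.91, and PAE minus PF was −1.29.

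The remaining site, chr19:51781776-51782402, was lower in PF, with a peak in 10 CON, 9 PAE and 5 PF libraries. Its lowest, median and highest heights were 0.884, 1.36 and 1.65 in CON, 0.438, 1.21 and 1.61 in PAE, and 0.438, 0.612 and 1.67 in PF. PF fell apart into 5 libraries at the floor and 5 with a peak, the highest of which matched the highest CON library. Of these 5 at the floor, 4 were the 4 PF libraries with few peaks on chromosome Y, and the only PAE library without a peak was the only such PAE library, while both such CON libraries had a peak. The log2 difference between PF and CON was −0.74 (SE 0.276, unadjusted p = 0.0116, adjusted p = 0.773), with lane values from −1.35 to 0.23, −0.49 with fold enrichment in place of height, −0.49 with the larger overlap and −0.22 in the 12 libraries that went with their labels. It halved to −0.36 in the 23 libraries with many peaks on chromosome Y, so much of it moved with the libraries that had few, and the part of sex in it was not tested.

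Mean normalized height varied along the span. Libraries without a called peak count in it at the floor, so it also depends on how often peaks were called. In windows of 100 kb from the left end, with a last one of 78 kb and without the end regions, there were 24 to 30 members per window. Next to the left end the heights averaged 0.589 for CON, 0.553 for PAE and 0.575 for PF libraries. In the fourth window, chr19:51585919-51685918, they were 0.736, 0.667 and 0.686. These were the highest window means for CON and PF, while PAE was highest in the third, at 0.668. In the last window the means were 0.543, 0.523 and 0.509. CON had the highest mean in every window, and the order of PAE and PF turned in the last 2. CON also had the most autosomal peaks per library, and the part of that in the window means was not tested. From left to right the windows held 20, 24, 23, 27, 23 and 19 tested members. At an unadjusted p under 0.05, PAE versus CON gave 0, 3, 3, 3, 2 and 1 of them in that order, beside 7.37% of all regions. PAE versus PF gave 1, 0, 1, 3, 1 and 2, beside 4.46%, and PF versus CON gave 1, 0, 1, 4, 3 and 1, beside 6.46%. The fourth window had the most in the latter comparisons and also the most tested members, and no window was tested against the others. The median number of libraries per member was highest in the fourth window, at 12, and was 4 in the last. The 2 members called in all 30 libraries lay in the second and the fourth window.

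Since the right end of the span is a site that the study assigned to males, the group differences were also compared between the labelled sexes. The interaction of labelled sex with PAE versus CON gave 0 members and 0% of all regions at an FDR of 0.05, and 6 of 136 inner members (4.41%) at an unadjusted p under 0.05, beside 4.87% of all regions. With PAE versus PF it gave 0 members at the FDR and 5 members (3.68%) at the unadjusted threshold, beside 3.19%, and with PF versus CON 0 and 6 members (4.41%), beside 4.77%. With dam as a block, since siblings pair the labelled sexes, the FDR gave 0 members and 0% of all regions in each, and the unadjusted threshold gave 6 members in each, beside 4.7%, 4.48% and 5.23% of all regions in the same order. Because 18 of the 30 libraries went against their labels, these counts describe the labels and not the sexes.

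Cdh13 was somewhat richer in DNAm peaks than the genome as a whole, as was its neighbourhood. It had 28.7 regions called in 2 or more libraries per 100 kb, beside 24.9 and 26.1 in equally long stretches on its lower and higher coordinate sides, 20.4 over chromosome 19 and 16.5 over all autosomes. Among 8 other genes with listed regions at least 200 kb apart, measured between those regions, the density went from 15.2 in Pcdh9, a protocadherin, to 29.6 in Camta1, a calmodulin-binding transcription activator. Cdh13 lay near the top of this range together with Magi1, at 27.6. No test was made of these differences.

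The other spans also had more regions lower than higher in PAE. Without the end regions of each gene, the share of tested regions lower in PAE than in CON was 66.2% in Cdh13 and 58.5% in Trpm3 to 81.2% in Tenm2 among the other genes, beside 66.7% and 58.1% in the stretches next to Cdh13 and 63.2% of all regions. The other genes also come from the list of the study, so their shares describe chosen genes. In the per-library mean log2 height over tested regions, the spans most like Cdh13 among the other genes were Magi1, which encodes a synaptic scaffold protein (Spearman 0.860, Pearson 0.936), Tenm2, which encodes a teneurin adhesion protein (0.859 and 0.943), and Ephb1, which encodes an ephrin receptor (0.853 and 0.927), each over 30 libraries. Without the end regions Tmem178b, at a Spearman correlation of 0.842, passed Ephb1, at 0.838. The stretches next to Cdh13, which were not ranked with the genes, were then at Spearman correlations of 0.826 and 0.849 and Pearson correlations of 0.939 and 0.919. The points are the same libraries with the same depth and number of peaks, and the lowest values among the 8 spans were a Spearman correlation of 0.614, in Pcdh9, and a Pearson correlation of 0.817, in Gpc5.

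Other cadherins and catenins, the proteins that link classical cadherins to the cytoskeleton, were, apart from the span of Pcdh9, looked at only in regions that the study lists, which were chosen on these same animals, so their direction is no independent evidence. Over 9 such regions in Cdh23, Clstn2, Pcdh9, Pcdh15, Ctnna2 and Ctnnd2, PAE had a lower mean height than CON at 6. Both means were at the floor in Ctnna2 and at chr15:76891491-76891927 in Pcdh9, and PAE was higher at chr15:77364183-77364512 in Pcdh9. Of all tested regions, 63.2% were lower in PAE than in CON by the limma difference. That measure is unlike the plain means used for the listed regions, and those called in only 2 libraries were not tested. The only one called in most libraries was in Cdh23, the cadherin of the tip links of hair cells, at chr20:30243177-30243624, with 9 CON, 8 PAE and 7 PF libraries and means of 1.68 ± 0.598, 1.15 ± 0.579 and 1.04 ± 0.457 (SD, n = 10). In Ctnna2, which encodes a neuronal alpha-catenin, chr4:108870297-108870643 was called in 5 PF libraries and no others. The remaining regions were called in 2 to 6 libraries, beside 3 at the right end of Cdh13.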

How the data were processed

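Groups, labelled sex, dam and lane came from the labels. Reads had been mapped to Rn6 by the authors (BWA, SAMtools), who called peaks in every library on its own, with no input control, in MACS2 (version 2.1.4 per the file headers) at a q-value of 0.05. The deposited signal is the pileup at each summit, not scaled for depth. The deposited fold enrichment is a ratio of pileup to local background, and the deposited −log10 q-value served for a stricter threshold of 0.01. The authors' read counts in regions and their batch correction were not used here.

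Rows of one peak were joined at the highest pileup, autosomal peaks overlapping by at least 1 bp were merged into 604866 regions, and the 352026 regions called in at least 3 libraries were tested. Log2 normalized heights, with the floor taken as the highest over libraries of the lowest called height, went into linear models in limma (version 3.58.1, under R 4.3.3) with trended prior variances and terms for lane, labelled sex and group, with an interaction of group and labelled sex in a further fit, and p-values were two-sided and adjusted by the Benjamini-Hochberg method over all regions tested. The fit without interaction was tested on simulated data that had no lane or litter effects. Changes were added there only to regions well above the floor, so changes at members near the floor were not covered. Tables were made in Python (3.11.15) using scipy 1.17.1, pandas 2.3.3 and numpy 2.4.6. Dams lie within groups and could not be a fixed block for these, so a random effect of litter was an alternative. Siblings pair the labelled sexes, so the interaction was also fitted with dam as a block. The others were no lane or labelled sex term, other floors, region filters, scalings and peak thresholds, fold enrichment, a larger overlap, each library left out in turn, and the libraries grouped by chromosome Y peaks.

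The members, lists and tests were chosen with earlier results of these data known. Named regions are the ends, the 3 inner members with the smallest p in each contrast, the 5 highest in mean height, the longest, those just inside and outside the ends, and by position up to 2 called in exactly 2 libraries and up to 2 called in 1. Named genes are Cdh13, the 3 most similar spans and the cadherin list, and any other region or span was named after its values were seen. Exon and intron positions of inner members, and sequences, were not analysed here, since no Rn6 genome was used.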

Additional observations from a re-analysis of the deposited data

Results flagged for a closer look

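Within single groups of 10 libraries, 12 of 40 group and measure combinations had a library standing apart at the top or bottom, where chance alone flags about 1 in 20 groups. That rate does not hold where libraries are tied at the floor: 6 of the 12 were among the 13 combinations with at least 5 libraries at the floor, and 6 among the other 27. The ends of the span gave 4 of the 12, and since they helped to choose it these are given as a description. In 3 of them that library was the only one above the floor, in PAE at the right end and at chr19:51421480-51423365 and in PF at chr19:51724842-51725198. At the left end of the span the lowest CON library was at 0.438 while the other CON libraries had a peak, and the highest PF library was at 2.23. At the right end the highest PAE library stood at 0.817 and the highest PF library at 0.804. At chr19:51681912-51682783 the highest PAE library reached 1.57 and the highest PF library 1.51. At chr19:51421480-51423365 these were 0.606 in PAE and 1.43 in PF. A PF library stood apart at 0.795 at chr19:51724842-51725198 and another at 2.15 at chr19:51365508-51366210, and a PAE library at 1.93 at chr19:51537913-51538541. By the number of members called, 1 PAE library had 82, more than any other library.

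In data outside the comparisons, peaks on chromosome Y appeared in libraries labelled female, with up to 87 in a library, more than in any library labelled male.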

How the results depend on the processing

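The 1 region that differed between PAE and CON at an FDR of 0.05, outside Cdh13, was lost (0 regions) with no lane term, with a pseudocount of 0.1, in regions called in all 30 libraries, under quantile normalization or median ratio scaling, with fold enrichment and with peaks covering at least 50% of the region, and it was 3 in the 12 libraries that went with their labels, an alternative chosen after seeing the data. It was 0 in the 23 libraries with many chromosome Y peaks, also chosen after seeing the data. Without single libraries it was 0 to 1. Between PAE and PF and between PF and CON it stayed at 0 in all alternatives run. Members at an unadjusted p under 0.05 between PAE and CON went from 12 to 0 in regions called in all 30 libraries, where only 2 members remain, to 6 under quantile normalization, 7 with fold enrichment and 5 in the 12 libraries, and were 6 to 13 without single libraries. Between PAE and PF they went from 8 to 3 with no lane term, 5 with each library's own floor, 0 in regions called in all 30 libraries, 3 in the 12 libraries and 5 in the 23, and were 4 to 8 without single libraries. Between PF and CON they went from 10 to 6 with the pseudocount, 0 in regions called in all 30 libraries, 6 with fold enrichment, 4 with the larger overlap and 5 in the 12 libraries, and were 7 to 15 without single libraries. Fewer members were tested in the 12 libraries (79), in the 23 (122) and with the larger overlap (118) than in the main fit (136). Apart from the 2 regions left and the fewer members and libraries, the cause was not tested. The log2 differences of single regions printed for the whole set kept their sign in the alternatives that gave a value, except at chr19:51291006-51291549, where PAE minus PF turned to 0.0933 with the larger overlap. Medians turned for PAE minus PF, over the members to 0.01 without PF replicate 4 and over all regions to 0.01 in the 12 libraries. Sizes moved more, with PF minus CON at chr19:51705530-51706188 from 0.42 with the larger overlap to 2.26 with the pseudocount, which by construction widens the distance to libraries without a peak. The smallest-p regions gave no value in regions called in all 30 libraries, and other alternatives gave none for chr19:51291006-51291549 and chr19:51724842-51725198 in the 12 libraries, for chr19:51421480-51423365 with the larger overlap, and for chr19:51724842-51725198 also without any of the 3 libraries that had its peak. Dams lie within groups, and the labels do not name the PAE partner of each PF dam, so no paired analysis of the prenatal groups was run. The interaction with labelled sex was also fitted with dam as a block, an alternative chosen after seeing the data, and kept 0 regions at the FDR in all 3 comparisons. Limits: coverage under the calling threshold is not in the peaks, so the height of a library at the floor is unknown and such differences are uncertain in size, and members called in few libraries carry little information. Chromosome Y peaks went against 18 labels. Lanes held the groups unevenly. Siblings share a dam, and the random effect of litter kept all counts within 1.5 times, but litter and group cannot be told apart.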
